A study of Mus musculus with 20 samples.

Results

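The genes described here build and stock the primary cilium, the single antenna-like projection of most neurons and some glia. They are 38 genes of 3 kinds of machinery, intraflagellar transport, the BBSome with its chaperonins, and the transition zone, together with the ciliary membrane GTPase Arl13b. They were listed by name from the known function of their proteins, with earlier results of these data known. The deposited table held 37 of them among its 19463 genes, and Tctn2 was not analysed here. All 37 passed the filter of a mean normalized value of at least 10.

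Ciliary proteins are made in the cell body and carried in. Intraflagellar transport moves cargo along the ciliary microtubules: IFT-B trains run with kinesin-2 toward the tip, and IFT-A with dynein-2 returns them to the base. The BBSome is a coat complex that rides on these trains and moves membrane receptors out of the cilium, and the transition zone is the gate of fibres and membrane proteins at the ciliary base that sets which proteins may pass. In the brain, cilia carry receptors of Hedgehog and neuropeptide signalling, and loss of these genes is known from Bardet-Biedl, Meckel, Joubert and nephronophthisis syndromes.

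RNA was sequenced from whole brains of male C57BL/6J mice lacking Katnal2, a relative of the microtubule-severing katanin ATPase, and of wild-type (WT) mice. There were 5 mice for each of the 4 groups: WT and Katnal2-KO at postnatal day 21 (P21, 3 weeks) and WT and Katnal2-KO at postnatal day 70 (P70, 10 weeks), 20 mice in all. The KO mice carried a homozygous germline deletion of exon 3, made from a EUCOMM tm1a embryonic stem cell allele with Protamine-Flp and with cell-permeable HTNC Cre at an early embryonic stage, and WT mice carried neither change. The comparisons ask whether loss of Katnal2 changed the expression of these ciliary genes at either age, whether the effect differed between ages, and how the genes changed with age. The deletion was in every cell and the sample was the whole brain, so fewer cells of one type and less RNA per cell cannot be told apart. The ages are separate animals, and age cannot be told apart from whatever else differed between the sets of libraries.

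Values are read counts that the authors normalized between libraries, and those of single mice are given in the order of the mouse numbers 1 to 5. Their column totals ran from 27310523 to 28423042 after that scaling, so sequencing depth is unknown and no counting interval can be given. The targeted gene was only partly reduced in these values, which sum over all its transcripts and so can still count exons outside the deletion. Which exons the remaining reads came from was not tested. Katnal2 was at 113, 100.2, 115, 99.3 and 108 in WT mice at P21 (107 ± 7.4, SD, n = 5). In KO mice of that age it was at 96.0, 94.0, 78.1, 81.0 and 95.9 (89.0 ± 8.7, SD, n = 5), so the groups did not overlap. The level in KO mice was 0.829 times that in WT mice (in an exact permutation test, two-sided, p = 0.00794, the smallest that 5 against 5 mice can give; adjusted p = 0.9999 in limma over all genes). At P70 the groups overlapped, with 101 to 142 in WT and 95.1 to 126 in KO mice (exact two-sided permutation p = 0.0794).

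Mouse number 5 of each P70 group stood apart from its group, and the ciliary genes showed it. The standard deviation of the members' log2 deviations from the other 4 mice of the group was 0.437 in the KO and 0.390 in the WT mouse of that number, against 0.111 to 0.222 in the other 18 mice. In both animals, 14 members lay above all of the other 4 mice of their group and 10 lay below all of them. Over all genes those shares were 29.3% above and 28.4% below, so the members were not set apart from other genes in this. Ift43, an IFT-A subunit, was at 282 in the KO and 251.9 in the WT mouse, against means of 156 and 162 in the other 4 KO and WT mice (1.81-fold and 1.56-fold). B9d1, a B9-domain protein of the transition zone, was at 1.69 and 1.60 times the mean of the others and the IFT-B GTPase Ift27 at 1.68 and 1.61 times. Dync2h1, the dynein-2 heavy chain, was at 858 in the KO and 864 in the WT mouse, 0.547 and 0.517 times the mean of the others, and Arl13b was at 0.549 and 0.655 times.

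The members that were high in both of these mice had a median GC content of 51.9% and a median longest transcript of 3283 bases. Those low in both had 43.2% and 5543 bases. Across the 37 members, the deviation of the KO mouse followed GC content with a Spearman rho of 0.69 and that of the WT mouse with 0.74, while over all genes rho was 0.61 and 0.59. With transcript length rho was -0.42 and -0.39 over members and -0.38 and -0.39 over all genes. These correlations are across genes within 1 mouse, genes are not independent replicates, and both values come from the same 2 libraries, so no p is given. What set these libraries apart was not tested. The fold changes of members that involve P70 are therefore given with and without these mice.

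**Figure D1:**
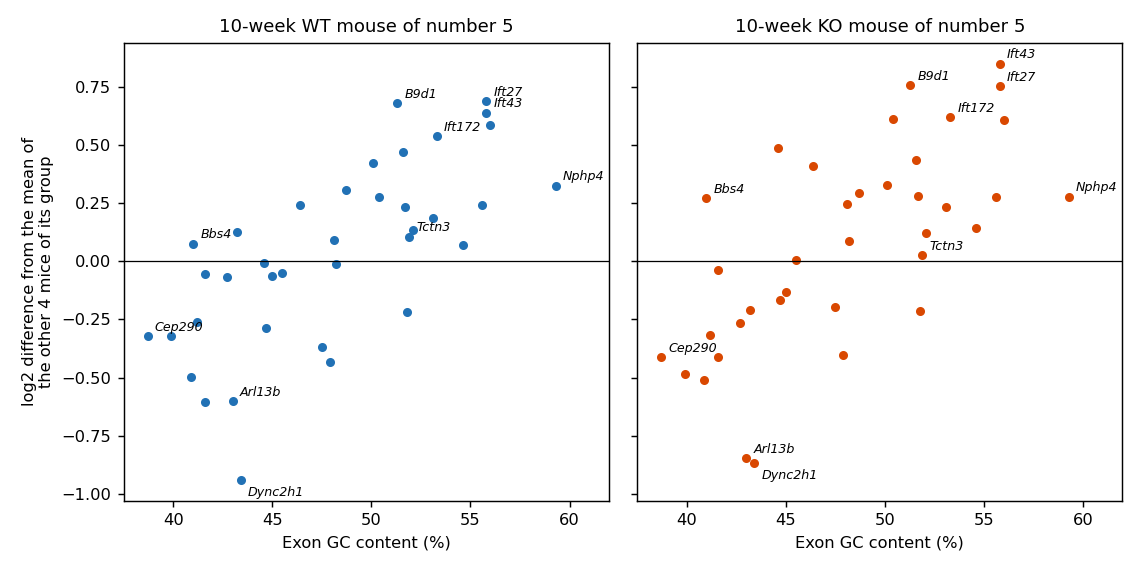
Log2 deviation of each of the 37 members in the P70 WT (left) and P70 KO (right) mouse of number 5 from the mean of the other 4 mice of its group, plotted against GC content in percent. Each point is 1 gene, and genes of higher GC content sit higher in both mice, with a rho of 0.74 and 0.69.

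All 37 members were expressed in every group. To set genes beside each other, levels were divided by the length of the union of their exons and averaged over the 20 mice. The median member had 112 normalized reads per kilobase against 86.7 for all genes, and 25 of the 37 lay above the median of all genes. The highest and lowest members differed 18.4-fold. Ift20, which links IFT-B to the Golgi, led with 694 per kilobase, followed by the small GTPase Ift22 at 347, Ift57 at 335 and the large IFT-B subunit Ift172 at 314. The chaperonin-like Bbs10 was lowest at 37.7, then Mks1 at 41.9, the membrane protein Tmem67 (meckelin) at 44.1 and the chaperonin-like Bbs12 at 46.0.

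By role, the medians per kilobase were 177.6 for the 11 IFT-B genes, 166 for the 7 BBSome subunits, 99.9 for the 4 IFT-A and dynein-2 genes, 79.3 for the 12 transition zone genes and 41.8 for the 2 chaperonins, with Arl13b at 53.2. The order within the list was fine-grained. Of 36 neighbouring pairs in it, only Ift20 and Ift22 had ranges over mice that were apart in all 4 groups, and those of every other pair overlapped in at least 1 group. Per kilobase of the longest transcript the median rose to 186.7, and 5 members moved by more than 5 places.

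**Figure D2:**
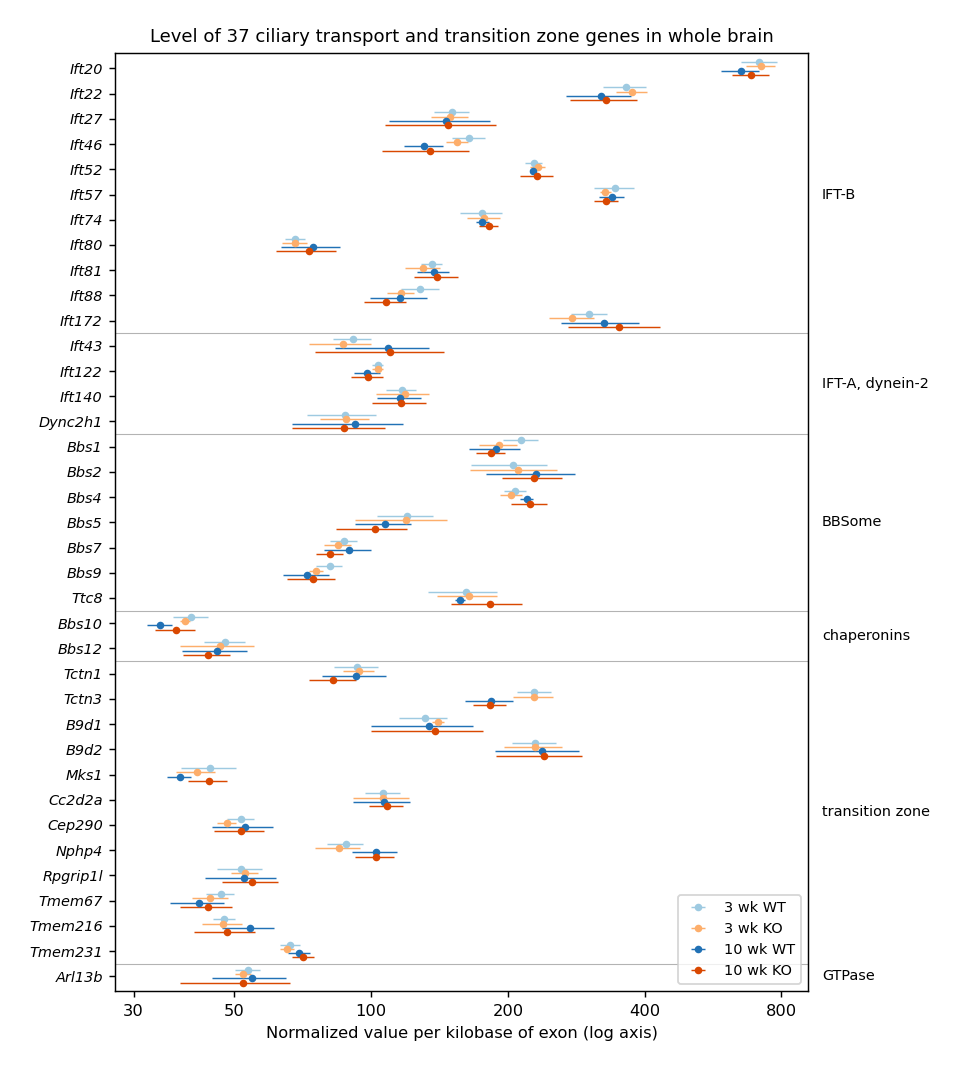
Normalized read count per kilobase of exon (log axis) of the 37 members, listed by role, with 1 point for the mean of each of the 4 groups and bars for the SD over its 5 mice. Ift20 stands above all others at 693.5 and Bbs10 is lowest at 37.7.

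The mice of a group differed little in most members. The median coefficient of variation over members was 9.0% in WT and 8.2% in KO mice at P21, and 13.1% and 12.1% at P70. Without the number 5 mice the P70 values were 8.1% and 7.2%. The most variable members were Bbs2 in WT (19.1%) and Bbs5 in KO mice (23.0%) at P21, both BBSome subunits, and Dync2h1 in WT (27.4%) and Ift43 in KO mice (31.4%) at P70. The summed level of the 37 members, relative to its mean over the 20 mice, stayed between 0.95 and 1.07 in every mouse.

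A feature of sequence that the list was not chosen by is the X-box, the DNA element bound by RFX transcription factors, which are known regulators of ciliary genes. RefSeq promoters on GRCm38.p6 (from 250 bases before to 50 bases after the start) were found by symbol for 34 of the 38 listed genes, and Ift80, Ift81, Ift122 and Tmem67 had no entry. An X-box-like sequence, GTNNCCNNGGNAAC on either strand, lay in the promoters of 11 of the 34 (32.4%), Tctn2 among them, and of 5 of 60 other cilium genes with an entry (8.3%). Over all genes with an entry it lay in a promoter of 403 of 27025 (1.49%), and in 1.29% of all 32851 promoters of that length, since some genes have several. The shorter motif GTTGCC, also on either strand, overlaps it where the first arm reads so or the second arm reads GGCAAC. This motif was in 18 of the 34 (52.9%), in 15 of the 60 (25.0%) and in 14.1% of all genes (12.5% of all promoters). Matches are a description of the letters, not evidence of binding. Of the 12 matches, 7 lay upstream of the start and 10 within 100 bases of it. The windows below belong to genes whose values are described in detail, with the match in capitals, 8 flanking bases where the table reaches that far, and the strand on which the match reads.

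Ift22 (chr5:136908079-136908108, - strand): gctgcgcaGTAGCCCAGGAAACcctgacag

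Ift22 (chr5:136908109-136908138, + strand): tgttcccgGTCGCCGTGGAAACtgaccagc

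Bbs1 (chr19:4906605-4906634, + strand): tcccaggcGTCGCCTTGGCAACcagctcag

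Bbs4 (chr9:59353464-59353493, - strand): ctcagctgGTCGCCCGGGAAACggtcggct

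Bbs7 (chr3:36613489-36613518, - strand): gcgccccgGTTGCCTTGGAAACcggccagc

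Mks1 (chr11:87853183-87853212, + strand): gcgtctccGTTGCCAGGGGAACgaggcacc

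Nphp4 (chr4:152477903-152477932, + strand): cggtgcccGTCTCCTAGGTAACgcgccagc

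Tctn1 (chr5:122264411-122264432, - strand): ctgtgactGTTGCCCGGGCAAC

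Ift22 holds 2 matches next to each other, on opposite strands, 56 and 26 bases before its start. Those of Mks1 and Bbs7 lie 17 and 114 bases before the start, and that of Nphp4 224 bases before it. Those of Bbs1, Bbs4 and Tctn1 lie 8, 30 and 43 bases after it. These distances are from RefSeq starts, which can differ from the GENCODE ends printed with the genes, and the RefSeq start next to the match of Nphp4 is a later one, inside the span given for that gene. The genes with a match did not share one course: of those shown, Nphp4 was higher and Ift22 lower with age, each under the conditions given with its values, and Bbs4 did not pass the adjusted threshold in any main comparison.

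None of the 37 members passed the threshold between KO and WT mice at P21. All estimates lay between -0.16 and 0.10 on the log2 scale, with a median of -0.03 against 0.00 over all genes, and 11 of the 37 were positive. The test was limma on log2(value + 1) with Benjamini-Hochberg adjustment, and it called 0 of 17610 genes (0%). At an unadjusted p under 0.05 it called 0 members, where 2.44% of all genes passed. No member had KO and WT mice apart (0.460% of all genes did). The 95% intervals had a median half-width of 0.18, and over all members they reached from -0.35 (Bbs5) to 0.34 (Bbs2). The width differed between members, and that of Ift122 was -0.10 to 0.09. A difference inside a member's own interval is not excluded by these mice.

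The BBSome subunit Bbs1 (chr19:4886878-4906628, - strand) had the lowest estimate at P21. It was at 1573, 1860.0, 1467, 1656 and 1651 in WT and at 1465, 1494, 1223, 1575 and 1574 in KO mice. All KO mice lay below the WT median, and the ranges overlapped (log2 fold change -0.16, 95% interval -0.33 to 0.00, limma adjusted p = 0.9999). The IFT-B core subunit Ift88, whose loss removes cilia, was at 686, 612, 554, 573 and 548 in WT and at 586, 508, 503, 533 and 566 in KO mice (-0.14, -0.30 to 0.02). Cep290, a fibre protein that tethers the transition zone membrane to the microtubules, was at 657, 609, 605, 589 and 542 in WT and at 583, 543, 534, 542 and 595 in KO mice (-0.10, -0.24 to 0.03). In exact two-sided permutation tests each of these 3 genes gave p = 0.0873, unadjusted. Arl13b, the GTPase used as a stain for neuronal cilia, was at 272 ± 16.6 in WT and 266 ± 10.4 in KO mice (SD, n = 5 each; -0.03, -0.18 to 0.12). The BBSome subunit Bbs4 differed by -0.03 (-0.15 to 0.09) and tectonic-1 (Tctn1), of the transition zone membrane complex, by 0.02 (-0.16 to 0.19).

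The same held at P70. Estimates lay between -0.17 and 0.21 with a median of 0.01, and 23 of the 37 were positive. Again 0 of 17613 genes were called (0%), 0 members passed an unadjusted p under 0.05 (1.13% of all genes did), and no member had the groups apart (0.193% of all genes). With the number 5 mice in the groups the intervals were wider, with a median half-width of 0.25, and reached from -0.57 (Dync2h1) to 0.46 (B9d1). Without these mice the interval of Dync2h1 was -0.28 to 0.11 and that of B9d1 -0.21 to 0.26. Over all members they then reached from -0.47 (Tmem216) to 0.43 (Mks1).

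Mks1, a B9-domain protein of the transition zone (chr11:87853215-87863803, + strand), had the largest difference at P70. It was at 139, 159, 161, 149 and 159 in WT and at 162, 159.9, 175, 199 and 192 in KO mice. All 5 KO mice lay above the WT median, and the lowest KO mouse at 159.9 was below the highest WT mouse at 161.0 (log2 fold change 0.21, 95% interval -0.02 to 0.43, limma adjusted p = 0.9999; exact two-sided permutation p = 0.0159, unadjusted). At P21 the gene stood the other way, at 179 ± 24.9 in WT and 167 ± 16.5 in KO mice (SD, n = 5 each). The BBSome subunit Ttc8 (BBS8) was at 614, 601, 585, 575 and 590.4 in WT and at 703, 594, 599, 658 and 893 in KO mice, with the high value in mouse 5 of the KO group. Its log2 fold change was 0.20 (-0.04 to 0.44), and 0.10 without the number 5 mice. Bbs7, another BBSome subunit, was at 512, 532, 432, 522 and 408 in WT and at 425, 474, 456, 433 and 398 in KO mice (-0.13, -0.35 to 0.08). The log2 fold change of Mks1 was 0.19 and that of Bbs7 -0.16 without the number 5 mice. Of the fixed examples, Arl13b differed by -0.10 (-0.54 to 0.35), Ift88 by -0.10 (-0.35 to 0.15), Cep290 by -0.03 (-0.30 to 0.24), Bbs4 by 0.02 (-0.14 to 0.18) and Tctn1 by -0.16 (-0.43 to 0.11). These were, with the number 5 mice left out, -0.05, -0.09, -0.01, -0.02 and -0.17, and again 0 members were called.

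**Figure D3:**
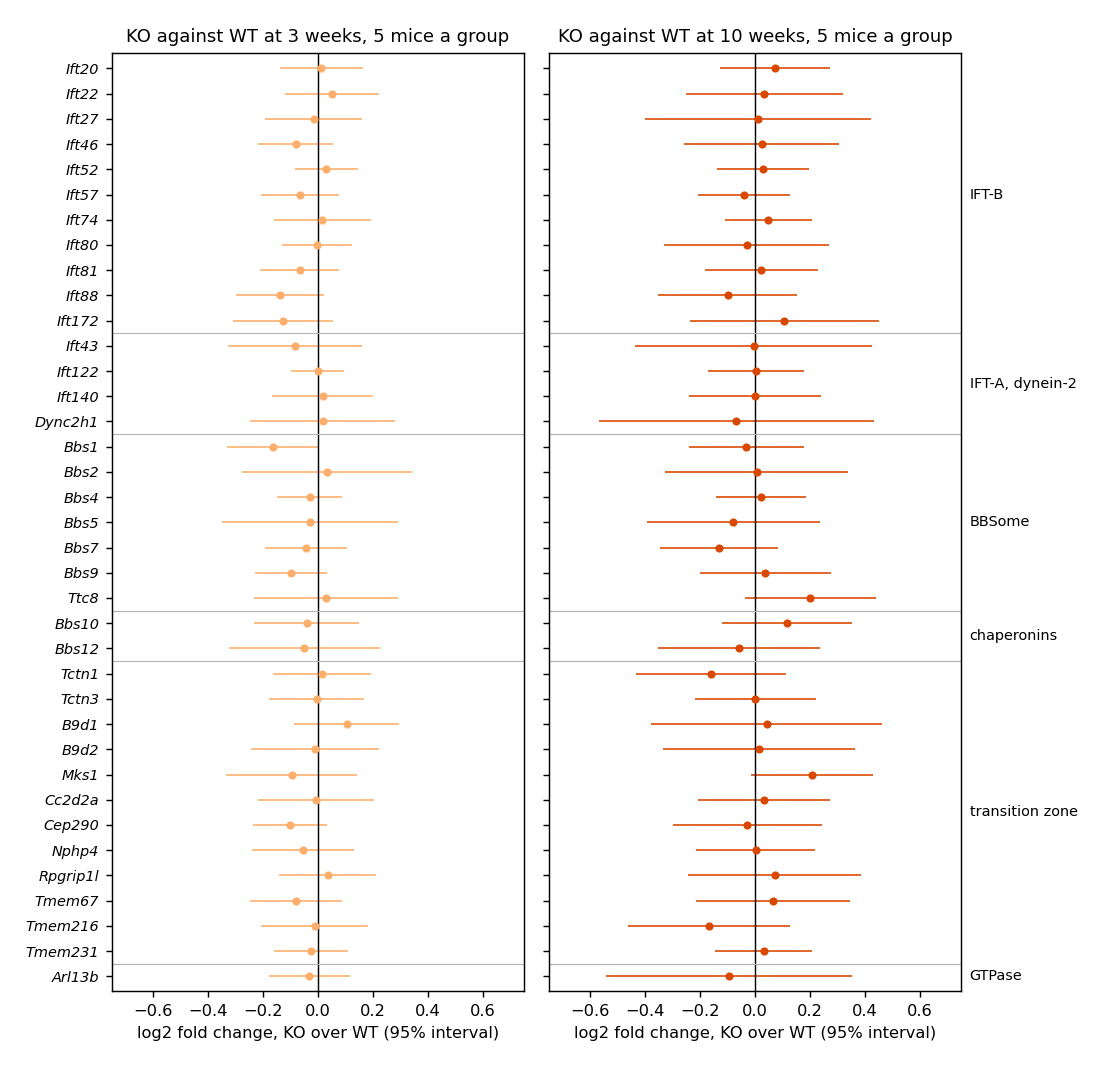
Log2 fold change (KO against WT) of the 37 members at P21 and at P70, grouped by role, with 95% intervals from limma. All intervals hold 0, and those at P70 are wider, with a median half-width of 0.25 against 0.18 at P21.

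No member passed the test of whether the effect of genotype differed between the ages. The age by genotype interaction called 0 of 17637 genes (0%), and 0 members at an unadjusted p under 0.05 (1.68% of all genes). The members with the smallest p were Mks1, whose effect at P70 less that at P21 was the largest (0.30, 95% interval -0.00 to 0.61), Bbs10 (0.16, -0.11 to 0.42) and Ift172 (0.23, -0.16 to 0.63), each with a limma adjusted p of 0.9999. For Arl13b it was -0.06 (-0.53 to 0.40), for Ift88 0.04 (-0.25 to 0.33), for Cep290 0.07 (-0.22 to 0.37), for Bbs4 0.05 (-0.14 to 0.24) and for Tctn1 -0.18 (-0.50 to 0.14). Leaving out the number 5 mice, the interaction was 0.29 for Mks1, 0.17 for Bbs10, 0.22 for Ift172, -0.02 for Arl13b, 0.05 for Ift88, 0.09 for Cep290, 0.01 for Bbs4 and -0.18 for Tctn1, with 0 members called.

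**Figure D4:**
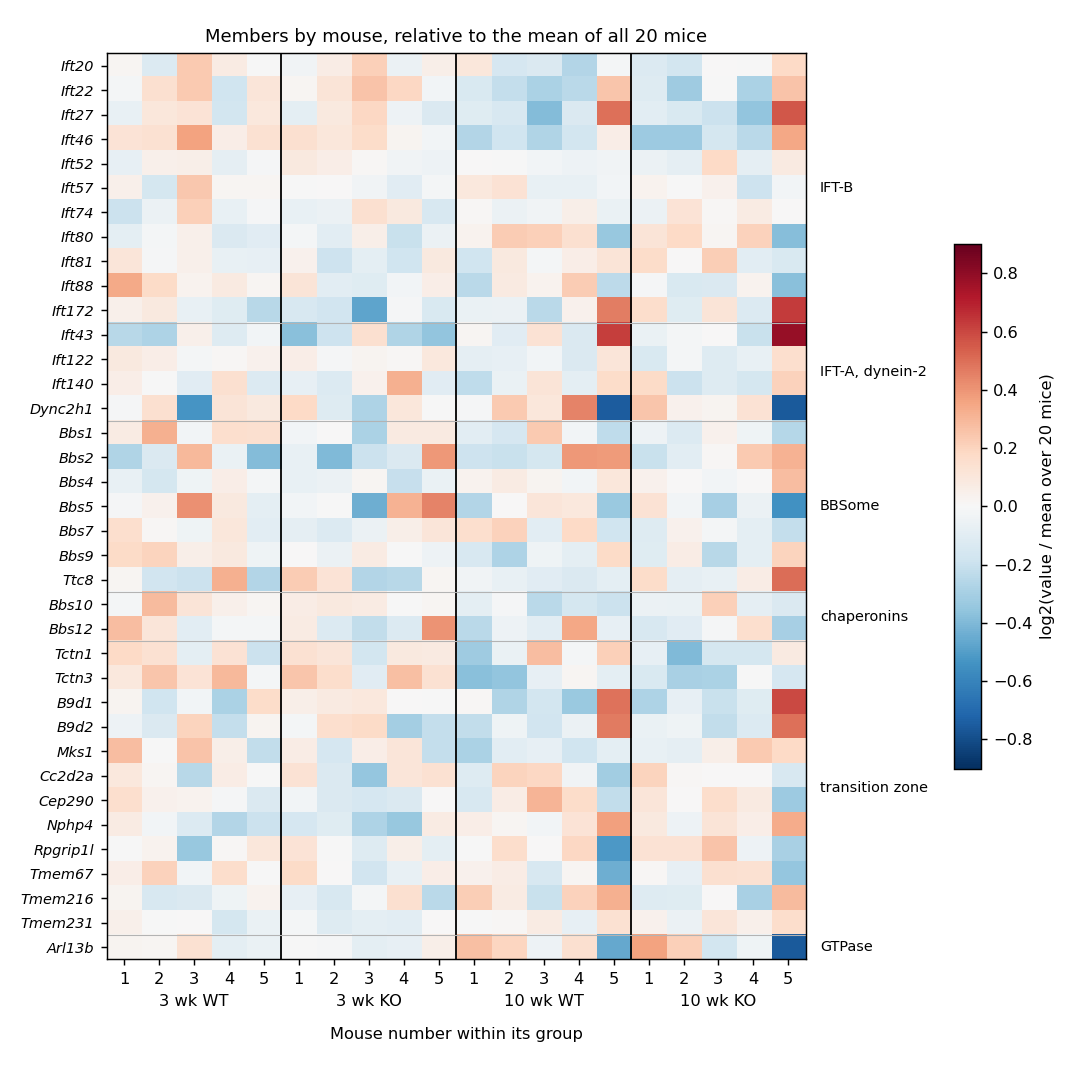
Value of each of the 37 members (rows, grouped by role) in each of the 20 mice (columns, by group), as the log2 ratio to the member's mean over all mice. The 2 P70 mice of number 5 differ most from the mean, and no column block sets KO apart from WT.

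Few ciliary genes changed with age. Between P21 and P70, 1 of the 37 members passed the threshold in WT mice, where 9.32% of all genes did, and 1 in KO mice, where 8.32% did. In both it was lower at P70, Ift46 in WT and Tctn3 in KO mice. No member had the ages fully apart in either genotype (10.8% of all genes in WT and 10.9% in KO mice). The median log2 fold change of the members was -0.01 in WT and -0.03 in KO mice. In the mean of both age changes over all 20 mice, which was added after the data were seen, 3 members were called, Ift46 and Tctn3 lower and Nphp4 higher, against 25.4% of all genes.

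The IFT-B subunit Ift46 (chr9:44767908-44793447, + strand) fell in WT mice. It was at 1023, 1033, 1205, 976 and 1031 at P21 and at 780.2, 827, 779, 839 and 977 at P70 (log2 fold change -0.33, SE 0.08, limma adjusted p = 0.0265). Only P70 mouse 5 reached into the P21 range. The call was lost when any of P21 mice 1, 2 and 3 or P70 mice 1 to 4 was left out (limma adjusted p from 0.0521 to 0.0656). In KO mice it was at 1037, 1006, 1051, 955 and 922 at P21 and at 747, 749.6, 840.4, 793 and 1194 at P70, where 4 mice lay below all P21 mice and mouse 5 above them. Its log2 fold change there was -0.22 (adjusted p = 0.297 in limma). Without the number 5 mice it was -0.34 in KO (limma adjusted p = 0.00155) and -0.38 in WT mice (limma adjusted p = 0.00234).

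Tectonic-3 (Tctn3, chr19:40596446-40612233, - strand) belongs to the membrane complex of the transition zone. In KO mice it was at 803, 751, 628, 813 and 741 at P21 and at 613, 549, 552, 672 and 606 at P70, a fall (-0.32, SE 0.09, limma adjusted p = 0.0487). In WT mice it was at 719.9, 801, 734, 823 and 666 at P21 and at 520.1, 526, 639, 683 and 632 at P70, with a log2 fold change of -0.32 (limma adjusted p = 0.0515). In each genotype 1 P70 mouse reached into the P21 range. The call in KO mice was lost when any of P21 mice 1, 2, 4 and 5 or P70 mice 1, 2 and 3 was left out (limma adjusted p from 0.0767 to 0.127). It was also lost with no filter on low values, quantile normalization, median centring or no intensity trend (limma adjusted p from 0.0529 to 0.0769). Without the number 5 mice it was -0.34 in WT and -0.32 in KO mice. Over both genotypes the change was -0.32 (limma adjusted p = 0.000978), and the P70 mice of number 5 lay within the range of their groups.

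Nephrocystin-4 (Nphp4, chr4:152476706-152563183, + strand), a transition zone scaffold, was the member that rose over both genotypes (0.24, limma adjusted p = 0.01). In WT mice it was at 599, 562, 524, 476 and 499 at P21 and at 594, 579, 560.2, 622 and 737 at P70. In KO mice it was at 514, 529.8, 470.4, 451 and 599 at P21 and at 607, 553, 619, 594 and 719 at P70, and the highest value of each P70 group was in mouse 5. In neither genotype by itself did it pass (0.21, limma adjusted p = 0.177 in WT, and 0.27, limma adjusted p = 0.109 in KO mice). Its change without the number 5 mice was 0.18 over both genotypes (limma adjusted p = 0.0152), 0.15 in WT and 0.22 in KO mice. Ift172 was at 1878, 1846, 1495, 2067 and 1887 in KO mice at P21 and at 2320.4, 1929.7, 2252, 1903 and 3216 at P70 (0.32, limma adjusted p = 0.182), and its P70 mouse 5 was the highest of all (0.20 without it, limma adjusted p = 0.141). Bbs10 in WT mice was at 114, 140.1, 125, 119 and 116 at P21 and at 108, 114, 97.0, 103 and 101 at P70 (-0.23, limma adjusted p = 0.208, and -0.21 without P70 mouse 5).

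With all mice the fixed examples did not pass. For Arl13b the age change was 0.01 (95% interval -0.26 to 0.29) in WT and -0.05 (-0.42 to 0.32) in KO mice, and for Ift88 it was -0.15 (-0.38 to 0.07) and -0.12 (-0.31 to 0.08). For Cep290 it was 0.02 (-0.20 to 0.24) and 0.09 (-0.11 to 0.30), for Bbs4 0.08 (-0.05 to 0.22) and 0.13 (-0.03 to 0.30), and for Tctn1 -0.01 (-0.26 to 0.24) and -0.19 (-0.40 to 0.02). Without the number 5 mice the changes in WT and KO mice were 0.13 and 0.12 for Arl13b, -0.10 and -0.05 for Ift88, 0.08 and 0.17 for Cep290, 0.07 and 0.08 for Bbs4 and -0.06 and -0.25 for Tctn1. The 2 genotypes share no mice in these comparisons. Of the 37 members, 29 had estimates of the same sign in both (78.4%), next to 80.0% of all genes. Across the members the estimates had a Pearson r of 0.75 and a Spearman rho of 0.70, next to 0.72 and 0.73 over all genes, given as descriptions across genes without a p.

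Without the number 5 mice more of the genes passed, as did more of all genes. In WT mice 4 members did, with Ift46, Ift22 and Tctn3 lower and Ift80 higher, against 17.0% of all genes. In KO mice 4 did, Ift46, Ift22, Tctn3 and Tctn1, all lower, against 21.3%. Ift22, the small GTPase of IFT-B, was in WT mice at 1239, 1385, 1471, 1104 and 1349.7 at P21 and at 1136, 1081, 1026, 1059 and 1489.9 at P70. In KO mice it was at 1269, 1355, 1496, 1423 and 1228 at P21 and at 1157, 1001, 1252, 1029 and 1496 at P70, and mouse 5 was the highest of both P70 groups. Its change without that mouse was -0.28 in WT (limma adjusted p = 0.0287) and -0.29 in KO mice (limma adjusted p = 0.0197). Ift80, another IFT-B subunit, was in WT mice at 829, 868, 909, 803 and 819.9 at P21 and at 899, 1033, 1023, 972 and 695 at P70, with P70 mouse 5 lowest (0.21 without it, limma adjusted p = 0.0342). Tctn1 in KO mice changed by -0.25 (limma adjusted p = 0.0465), and 25.5% of its exon bases are shared with genes on the opposite strand, whose reads these unstranded libraries cannot separate. Over both genotypes 9 members passed, with B9d1, Ift46, Ift22, Ift27, Tctn3, Ift122 and Bbs9 lower and Ift80 and Nphp4 higher, against 37.2% of all genes.

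**Figure D5:**
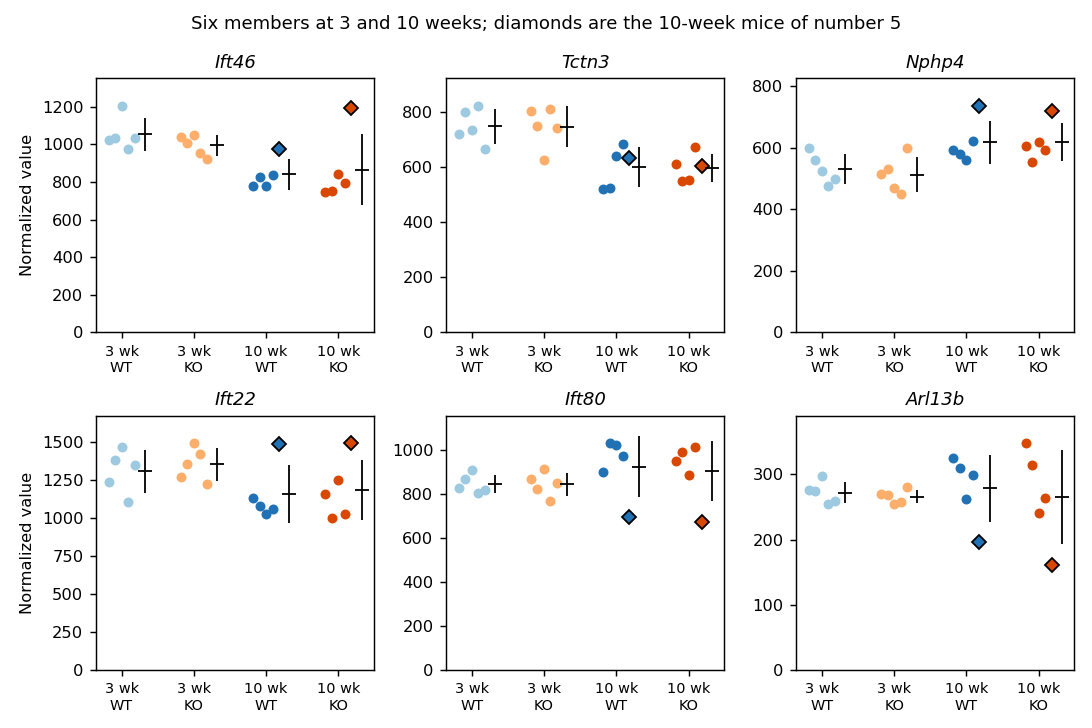
Normalized read count of Ift46, Tctn3, Nphp4, Ift22, Ift80 and Arl13b in every mouse at 3 and 10 weeks, with the mean and SD of each group beside its points and the P70 mice of number 5 as diamonds. Ift46 at 10 weeks sits below all 3-week mice of its genotype except in the diamonds, which are at 977 in WT and 1194 in KO mice. For Ift22 the diamonds are the highest 10-week mice of both genotypes, and other 10-week mice also reach into the 3-week range.

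Cell type markers moved with age in the same libraries. The summed level of 9 oligodendrocyte markers was 1.27 to 1.86 times its overall mean in the mice at P21 and 0.48 to 0.63 times at P70, and all 9 fell in both genotypes. The list of 7 markers of oligodendrocyte precursors and immature neurons lay at 1.096 to 1.317 at P21 and 0.68 to 0.93 at P70, with 5 of 7 lower in WT and 4 of 7 in KO mice. Red blood cell markers lay at 0.62 to 3.13 and 0.36 to 0.67, with 5 of 5 and 4 of 5 lower. The 12 neuronal markers stayed at 0.97 to 1.03 throughout, and those of ependymal cells, whose many motile cilia use the same transport genes, ran from 0.84 to 1.27. Choroid plexus markers ran from 0.71 to 1.36, astrocyte markers from 0.89 to 1.13, microglial ones from 0.80 to 1.19 and endothelial ones from 0.75 to 1.16. At P21 the ependymal sum was 0.917 to 0.957 in WT mice and 1.027, 1.004, 1.199, 0.968 and 0.91 in KO mice. That of choroid plexus was 0.789 to 0.982 in WT and 1.009, 1.237, 1.361, 0.865 and 0.872 in KO mice. At P70 the WT and KO ranges were 0.837 to 1.252 and 0.941 to 1.267 for ependymal markers. For choroid plexus they were 0.708 to 1.234 and 0.799 to 1.259. Genotype differences of these lists were not tested. Pituitary markers reached 10.7 in a P70 KO mouse and were the only list with genes at 0 in a mouse (Prl, Gh and Cga). The part of these cell types in the age changes of Ift46, Tctn3 and Nphp4 was not tested.

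Other genes of the cilium were examined beside the members. A list of 73 held further transport motors, BBSome partners, transition zone and inversin genes, basal body genes, neuronal cilium receptors and the Hedgehog pathway. Of these, 0 were called between KO and WT at either age and 0 in the interaction. At an unadjusted p under 0.05, 1 passed at P21, 0 at P70 and 0 in the interaction (2.44%, 1.13% and 1.68% of all genes did). In WT mice 2 of the 73 changed with age, where 9.32% of all genes did. Kif17, a kinesin of the ciliary tip, rose (0.38, limma adjusted p = 0.0164) and Hhip, which binds and restrains Hedgehog ligands, fell (-0.68, limma adjusted p = 0.0164). Kif17 was at 673, 603, 608, 590.0 and 605 at P21 and at 763, 677, 796, 860.5 and 919 at P70. Hhip was at 447, 560.4, 552, 494 and 512 at P21 and at 361, 375, 305, 398 and 204 at P70, so for both genes the ages did not overlap. In KO mice 5 of the 73 did, where 8.32% of all genes did. Hhip (-0.76) and the IFT-A subunit Wdr19 (-0.35) fell, while the Hedgehog transducer Smo (0.33), Kif17 (0.39) and the Joubert gene Ahi1 (0.22) rose. Each had a limma adjusted p of at most 0.0406. Some of these calls rested on single mice, which was not followed for Kif17 and Ahi1 in KO mice. The limma adjusted p of Kif17 in WT mice was 0.0516 without P21 mouse 4. In KO mice that of Hhip was up to 0.0526 without P21 mouse 2 or 4, that of Wdr19 up to 0.0646 without P21 mouse 2 or 5 or P70 mouse 2, and that of Smo up to 0.0668 without P21 mouse 1, 4 or 5 or P70 mouse 2 or 4. Over both genotypes 18 of 73 were called, 7 higher and 11 lower, where 25.4% of all genes were. With the number 5 mice left out, 6 of 73 were called by age in WT and 11 of 73 in KO mice, where 17.0% and 21.3% of all genes were, and Kif17 was at 0.33 and Hhip at -0.51 in WT mice.

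Of the other cilium genes with the smallest p, none passed between genotypes. Among these were Cep89 (0.24) and Tulp3 (-0.14) with Shh (-0.18) at P21, Smo (0.15) and Ahi1 (0.09) at P70, and Traf3ip1 (-0.26) and Cep89 (-0.26) in the interaction, as log2 fold changes with a limma adjusted p of 0.9999 for each. Bbip1, a small BBSome subunit, followed Kif17 and Hhip in WT mice by age (-0.22, limma adjusted p = 0.0587).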

How the data were processed

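RNA from 20 whole mouse brains was sequenced from TruSeq RNA kit libraries that do not mark strand, 5 for each genotype and age. The submitters' processing notes name Salmon 1.1.0, R 3.6.2, DESeq2 1.26.0 and the build GRCm38. The deposited signal values are gene counts that the authors estimated with GC bias correction, summed over transcripts and normalized between libraries. They are not whole numbers (in any mouse at most 41.6% of low values lay within 0.1 of a whole multiple of 1 step), so no count test was run and limma was used.

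Each comparison was fitted with limma 3.58.1 in R 4.3.3 on log2(value + 1), after genes averaging under 10 were left out, with eBayes and an intensity trend and Benjamini-Hochberg adjustment over all genes at a threshold of 0.05. Fold changes on this scale understate those of low genes. Age comparisons used the 2 age groups of a genotype, the interaction and the mean of both age changes all 20 mice. Single genes were tested by exact two-sided permutation (scipy 1.17.1). Lengths, GC content and coordinates came from GENCODE M21, which matched 19447 of 19463 gene IDs. The fitting code was tested on simulated data.

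Each column was mapped through its sample's title, and 0 columns were left unmapped. P-values measure the spread between mice. The members and lists were chosen with earlier results of these data known. Named with full statistics were, for each comparison, the 3 members with the smallest p, called members, and Arl13b, Ift88, Cep290, Bbs4 and Tctn1, with the 3 other cilium genes of smallest p and Katnal2. Of the genes this rule names, 1 is not reported here.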

Additional observations from a re-analysis of the deposited data

Results flagged for a closer look

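In each of the 148 combinations of a member and a group of 5 mice, the highest and the lowest mouse were checked for a gap to the nearest of the others that was large against the whole range of the group (Dixon's 95% limit). In 17 of them 1 mouse lay beyond it, where chance alone flags about 1 in 20 groups.

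The P70 mice of number 5 made up 10 of the 17. In the KO group that mouse was high in the IFT-B genes Ift27 (627) and Ift46 (1194), the IFT-A gene Ift43 (282), the BBSome subunit Bbs4 (1564) and the B9-domain genes B9d1 (327) and B9d2 (480.1), and low in the dynein-2 heavy chain Dync2h1 (858). In the WT group it was high in Ift22 (1489.9), Ift27 (600.0) and B9d2 (470.3). These are the libraries that stood apart over all genes too, and their part in the age changes is shown by the values without them.

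The other 7 were spread over 5 mice. At P21, WT mouse 3 was high in Ift46 (1205) and low in Dync2h1 (1004) and Rpgrip1l (613), and KO mouse 3 was low in Tctn1 (671). At P70, WT mouse 4 was high in Bbs12 (143), KO mouse 4 was low in Ift57 (843) and KO mouse 3 was high in Bbs10 (133).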

How the results depend on the processing

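Neither genotype comparison nor the interaction called any member at the adjusted threshold under any alternative run. At an unadjusted p under 0.05 the counts were 0 in the analysis as reported, and under the alternatives reached 2 at P21 (Bbs1 and Ift88, with the replicate block), 1 at P70 and 3 in the interaction. The number of members called by age was small and moved with the setting. In WT mice it was 1, and 2 with a minimum mean of 50, 2 with a correction for length and GC content, 2 with that correction and the replicate block, 2 with all 20 mice in one fit, 4 without the P70 mice of number 5, 3 at an unadjusted p under 0.05, 0 with the replicate block, and 0 to 4 when 1 mouse was left out. In KO mice it was 1, and 0 with no filter on low values, with quantile normalization, with median centring, with no intensity trend and with the replicate block, 4 without the number 5 mice, 3 at an unadjusted p under 0.05, and 0 to 4 when 1 mouse was left out. Over both genotypes it was 3, and 6 with the length and GC correction, 9 without the number 5 mice and 8 at an unadjusted p under 0.05. The median level was 112 per kilobase of exon and 186.7 per kilobase of the longest transcript. The causes of these moves were not tested. The correlation of deviations of same-numbered KO and WT mice ran from -0.009 to 0.26 at P21 and from 0.075 to 0.705 at P70, and between the ages from -0.119 to 0.16. Since not every pair was over 0.1 and no label ties the numbers to a litter or batch, the numbers were not taken to pair the mice. With the replicate block the limma adjusted p was 0.0636 for Ift46 in WT mice by age, and in KO mice 0.06004 for Tctn3, 0.0913 for Wdr19 and 0.0857 for Smo (0.058 with the length and GC correction too). Of all genes, 1643 were called by age in WT mice, 2827 with the length and GC correction, 3000 without the number 5 mice and 912 without P21 WT mouse 4. In KO mice 1467 were called, 913 with the replicate block, 2919 with the length and GC correction, 2274 with both, 3759 without the number 5 mice and 943 and 957 without P21 KO mouse 1 or 2.

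For the 70 values of single named genes, 1645 of 1746 alternatives kept the direction and the side of the threshold, 34 lost a call, 20 gained one and 47 changed sign. The last were of uncalled estimates, and the cause was not tested. They concerned, for KO against WT at P21, Bbs4 (-0.0577 to 0.0033 with 1 mouse left out), Tctn1 (-0.0409 to 0.0687 with 1 mouse left out, -0.0025 with the length and GC correction and its replicate block), and Arl13b (-0.0551 to 0.0004 with 1 mouse left out). For KO against WT at P70 they concerned Bbs4 (-0.0342 to 0.0408 with 1 mouse left out, -0.0191 without the number 5 mice), Cep290 (-0.0924 to 0.0543 with 1 mouse left out, 0.0227 with the length and GC correction and its replicate block), and Arl13b (-0.2157 to 0.074 with 1 mouse left out). For the interaction they concerned Ift88 (-0.0158 to 0.1024 with 1 mouse left out), Bbs4 (-0.0046 to 0.0778 with 1 mouse left out), Arl13b (-0.1843 to 0.1054 with 1 mouse left out), and Katnal2 (-0.003 to 0.1175 with 1 mouse left out). For age in WT mice they concerned Tctn1 (-0.0791 to 0.0705 with 1 mouse left out, 0.0046 with median centring), Cep290 (-0.0497 to 0.0829 with 1 mouse left out), and Arl13b (-0.0473 to 0.1349 with 1 mouse left out). For age in KO mice the value was that of Arl13b (-0.1588 to 0.1198 with 1 mouse left out, 0.0148 with the length and GC correction and its replicate block, 0.1198 without the number 5 mice). For age over both genotypes it was also that of Arl13b (-0.0722 to 0.0671 with 1 mouse left out, 0.0068 with median centring, 0.0435 with the length and GC correction and its replicate block, 0.1274 without the number 5 mice).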

Other observations

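The transcription factors that drive ciliary genes were examined as a list of 7. Between KO and WT mice 0 of them passed in limma at either age. At an unadjusted p under 0.05, 1 passed at P21 and 0 at P70, where 2.44% and 1.13% of all genes did. Foxj1 was at 241.3 to 317.1 in WT and 314.2 to 412.5 in KO mice at P21, with means of 283.6 and 346.3. The ranges overlapped only in that the lowest KO mouse, at 314.2, lay below the highest WT mouse, at 317.1. At P70 it was at 230.7 to 453.9 and 323.8 to 565.5, with means of 335.5 and 392.8. Rfx1, Rfx2, Rfx3 and Rfx7 had lower means in KO than in WT mice at P21, and Rfx4 and Gmnc had higher ones. With age 0 passed in WT mice (2 at an unadjusted p under 0.05), where 9.32% of all genes did, and 2 rose in KO mice, where 8.32% of all genes passed, Rfx2 (0.66, limma adjusted p = 0.0148) and Rfx4 (0.38, limma adjusted p = 0.0282), both of the family that binds the X-box. Rfx2 was at 90.6, 58.5, 103, 84.0 and 74.8 in KO mice at P21 and at 132, 118, 129.8, 125 and 139 at P70, and in WT mice at 93.9, 111, 83.2, 58.0 and 102 at P21 and at 134, 104, 85.6, 84.4 and 125 at P70 (0.26, limma adjusted p = 0.442). Rfx4 was at 323, 302, 346, 366 and 302 in KO mice at P21 and at 426, 456, 469, 436 and 356 at P70, and in WT mice at 299.5, 350.0, 311, 307 and 354 at P21 and at 419, 449, 317, 430.3 and 371 at P70 (0.28, limma adjusted p = 0.113). The age by genotype interaction was 0.41 for Rfx2 and 0.10 for Rfx4 (limma adjusted p = 0.9999 for both), so the genotypes were not shown to differ. Without the P70 mice of number 5 the changes in KO mice were 0.63 for Rfx2 (limma adjusted p = 0.0109) and 0.45 for Rfx4 (limma adjusted p = 0.00145).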
